A study of Mus musculus with 6 samples.

Results

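The 10 genes Ezh1, Ezh2, Eed, Suz12, Jarid2, Bmi1, Cbx7, Cbx8, Ring1 and Rnf2, which encode core proteins of the Polycomb repressors, were followed through every microarray probe set whose platform annotation names that gene alone. This gave 29 probe sets of 45037 tested, and 10 genes of 18193. RNA came from bone marrow of male mice 6 weeks old with 1 Hes1 allele replaced by a green fluorescent protein reporter (genotype Hes1 GFP/WT). The cells were lineage-negative, c-Kit-positive and Sca-1-negative, a surface phenotype of myeloerythroid progenitors, and were divided into GFP-positive and GFP-negative cells, with 3 arrays in each group. All 6 arrays share the reporter genotype, and GFP stands for transcription from the Hes1 locus, not for a direct measure of Notch signalling. The labels do not say whether arrays come from separate or pooled animals, so p-values measure the spread between these arrays, which may be technical. Precision is limited by having 3 arrays a group.

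Polycomb proteins keep genes silent by modifying the histones around them. Polycomb repressive complex 2 (PRC2) carries Ezh1 or Ezh2, which methylate histone H3, together with the scaffold proteins Eed and Suz12, and Jarid2 guides the complex to chromatin. Canonical Polycomb repressive complex 1 (PRC1) reads that mark through a chromobox protein such as Cbx7 or Cbx8 and attaches ubiquitin to histone H2A through Ring1 or Rnf2, with Bmi1 as a partner. In blood, Bmi1 and Cbx7 are known for stem cell self-renewal, Ezh2 for dividing progenitors, and Ezh1 for cells that divide less.

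Most probe sets of the Polycomb genes did not pass the test between GFP-positive and GFP-negative progenitors. Cbx8 had the lowest adjusted p and was lower in GFP-positive arrays, at 1 of 2 probe sets. Cbx7 was higher at 1 of 3 probe sets and Suz12 at 1 of 6. Ezh2, Eed, Jarid2, Bmi1, Ring1, Rnf2 and Ezh1 had no probe set past the threshold of 0.05 on the adjusted p of limma, a linear model fitted to all probe sets with Benjamini-Hochberg adjustment. In all, 2 of 29 probe sets were called higher and 1 lower, next to 6.35% and 7.66% of all 45037 probe sets, so the share called among Polycomb probe sets was near the background in either direction (10.3% against 14.0%). With the median of each array subtracted, 4 were called higher and 1 lower, and the share of calls that were higher went from 45.3% to 61.5% over all probe sets. The median log2 difference, GFP-positive minus GFP-negative, was 0.12 over the 29 probe sets and 0.09 over all, and the median size of the difference was 0.26 and 0.23. No Polycomb probe set had an estimated difference of 2-fold or more, and for 26 of 29 the 95% interval of the difference lay within 2-fold either way, against 78.0% of all probe sets. The 3 wider intervals belonged to a pair of Ezh1 probe sets and 1 of Cbx8. The groups did not overlap at 14 of 29 probe sets, 9 with GFP-positive arrays above and 5 below, beside 38.5% of all probe sets, of which 24.3% lay above and 14.2% below. Taken at the brightest probe set of each gene, 1 of the 10 genes was called, Cbx8, next to 18.1% of all 18193 genes, and the groups were separate for 6 of 10, next to 45.6%.

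The sequences before the start sites of the 3 genes with a called probe set are given because the cells were sorted by Hes1, a repressor known to bind short DNA elements called N boxes (CACNAG) and class C sites (CACGNG). The windows are the 250 bases before the RefSeq start site in GRCm38.p6, at chr11:79992856-79993105 on the + strand for Suz12, chr15:79932647-79932896 on the - strand for Cbx7 and chr11:119040914-119041163 on the - strand for Cbx8. Capitals mark these elements and, in Suz12, a match to TTTNNCGC, the form bound by E2F factors of the cell cycle.
Suz12: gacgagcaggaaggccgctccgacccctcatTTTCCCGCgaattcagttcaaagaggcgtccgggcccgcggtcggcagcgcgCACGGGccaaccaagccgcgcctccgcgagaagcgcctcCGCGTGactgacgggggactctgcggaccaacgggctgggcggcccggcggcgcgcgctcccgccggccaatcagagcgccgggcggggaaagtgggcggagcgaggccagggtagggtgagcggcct
Cbx7: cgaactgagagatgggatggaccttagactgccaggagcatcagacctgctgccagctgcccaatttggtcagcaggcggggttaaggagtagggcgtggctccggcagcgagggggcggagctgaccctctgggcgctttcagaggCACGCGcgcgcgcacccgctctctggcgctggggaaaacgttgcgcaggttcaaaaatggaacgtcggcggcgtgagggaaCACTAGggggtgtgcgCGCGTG
Cbx8: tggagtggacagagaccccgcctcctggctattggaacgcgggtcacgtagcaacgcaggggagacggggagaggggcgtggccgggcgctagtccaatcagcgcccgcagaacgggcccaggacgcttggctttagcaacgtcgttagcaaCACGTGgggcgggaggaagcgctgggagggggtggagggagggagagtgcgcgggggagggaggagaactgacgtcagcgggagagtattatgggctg
All 10 genes had a window, 11 in all because Jarid2 has a pair of start sites. Both strands were searched, and CACGAG counts as N box and as class C site. Class C letters were found in 9 of the 11 windows, against 23.5% of 32851 promoter windows of the same length, and N box letters in 5, against 36.7%. The E2F letters were found in 1 window, that of Suz12, against 4.28%, and GTGGGAA, a form bound by the Notch effector RBPJ, in 0, against 5.42%. The windows of the 10 genes had a median of 66.4% G and C and 22 CG dinucleotides, while all windows had medians of 52.4% and 6, and the class C and E2F letters contain CG. A match is a description of the letters and not of binding.

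Among the PRC2 genes, 1 of 16 probe sets passed the threshold, that of Suz12, next to 14% of all probe sets. Ezh2, the main PRC2 methyltransferase of dividing progenitors, has a single probe set (1416544_at). Its log2 intensity was 12.03, 12.08 and 12.00 in GFP-negative arrays 1 to 3 and 12.16, 12.29 and 12.17 in GFP-positive arrays 1 to 3. All GFP-positive values lay above all GFP-negative ones, by little. The difference was 0.17 (95% interval -0.05 to 0.38; limma adjusted p = 0.246), a span that holds no change as well as a rise of 1.30-fold. This was among the brightest signals of the arrays, with 95.6% of all probe sets dimmer.

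Suz12, the subunit that holds the PRC2 core together, was measured by 6 probe sets, and all 6 differences were above 0, from 0.12 to 0.47. The called one was the dimmest of them (1420020_at). It read 6.80, 6.75 and 6.71 in GFP-negative and 7.08, 7.32 and 7.27 in GFP-positive arrays. The groups were separate, and the difference was 0.47 ± 0.10 (SE), or 1.39-fold (limma adjusted p = 0.0291). The call was lost in 8 of the other settings, 5 of them with 1 array left out and the others the replicate number as a block, other variance priors, and leaving out GFP-negative array 3 with GFP-positive array 1 (adjusted p from 0.0566 to 0.102). The 5 brighter probe sets gave 0.12 to 0.35 with adjusted p from 0.117 to 0.662. At the brightest (1427253_s_at) the values were 11.74, 12.23 and 12.30 in GFP-negative and 12.17, 12.39 and 12.49 in GFP-positive arrays, so the groups overlapped. Averaged over its 6 probe sets, Suz12 differed by 0.25 (95% interval -0.01 to 0.51; limma adjusted p over all genes = 0.134).

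Eed, which binds the methyl mark and stimulates the enzyme, had a bright probe set (1448653_at) at 11.35, 11.13 and 11.12 in GFP-negative and 11.39, 11.44 and 11.29 in GFP-positive arrays. The groups overlapped through GFP-negative array 1, and the difference was 0.17 (95% interval -0.08 to 0.43; limma adjusted p = 0.306). Its other probe set lay at 3.37 to 3.97 over the 6 arrays, brighter than only 17.7% of all probe sets. Jarid2, the cofactor that helps PRC2 find its sites, overlapped at all 3 probe sets. The brightest (1422698_s_at) ran from 11.61 to 11.91 in GFP-negative and from 11.56 to 11.71 in GFP-positive arrays. The 3 differences lay between -0.12 and 0.05, and the 95% interval of each was within -0.41 to 0.29.

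Ezh1, the paralog of Ezh2, was the PRC2 gene whose probe sets differed most from each other. At the brightest (1418290_a_at) GFP-negative array 1 read 11.09, while GFP-negative arrays 2 and 3 read 9.22 and 9.23 and GFP-positive arrays read 9.19, 8.70 and 8.97. The groups were separate, but 1 array set the size of the gap. The difference was -0.89 (95% interval -2.13 to 0.34; limma adjusted p = 0.281), and without GFP-negative array 1 it was -0.27. That array exceeded both others of its group by over 1 log2 unit at 172 of 45037 probe sets (0.382%), of which 2 were Polycomb probe sets, this one by 1.86 and 1 of Cbx8 by 1.23. The second Ezh1 probe set (1449023_a_at) read 7.74, 7.47 and 7.60 in GFP-negative and 7.30, 7.32 and 7.20 in GFP-positive arrays. Here no array stood apart, the groups were separate, and the difference was -0.33 ± 0.11 (SE; limma adjusted p = 0.0877). The dim probe sets 1429629_at and 1429630_at overlapped, with differences of 0.28 and 0.26. The first of these changed sign without GFP-negative array 1 or GFP-positive array 3.

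**Figure D1:**
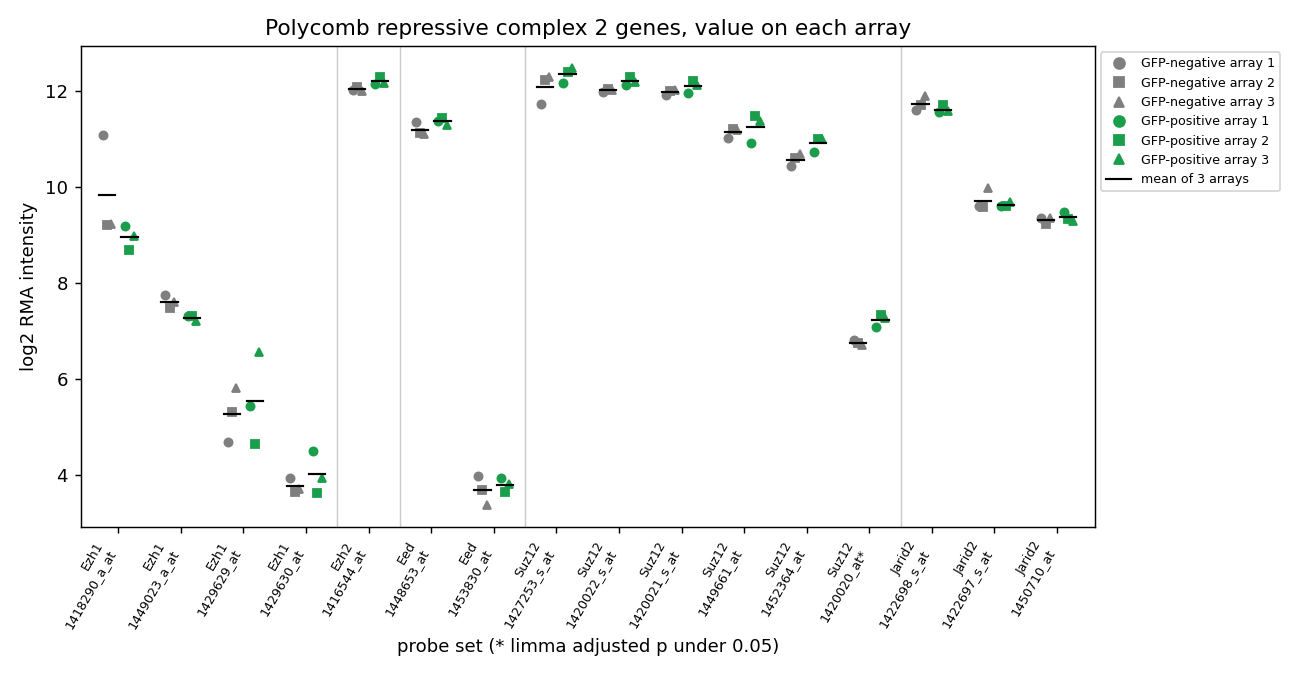
Log2 intensity of the 16 probe sets of the PRC2 genes (y axis) by gene and probe set (x axis), with 1 symbol per array, GFP-negative in grey and GFP-positive in green, and a bar at the mean of 3 arrays. The green and grey symbols of Ezh2, Suz12, Eed and Jarid2 lie close together, and GFP-negative array 1 stands at 11.09 for the first Ezh1 probe set.

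Among the PRC1 genes, 2 of 13 probe sets passed the threshold, next to 14% of all probe sets. They belonged to chromobox genes and went in opposite directions. Cbx8, a chromobox protein linked to lineage commitment, was lower in GFP-positive cells. Its probe set 1419198_at read 7.29, 7.18 and 7.21 in GFP-negative and 6.65, 6.42 and 6.66 in GFP-positive arrays. The groups were separate, and the arrays of each lay close together. Cbx8 fell by 0.65 ± 0.11 (SE) on the log2 scale, 1.57-fold (limma adjusted p = 0.0113). The call held with any 1 array left out, with adjusted p up to 0.0453, and was lost without GFP-negative array 3 and GFP-positive array 1 together (0.0819), which leaves 2 arrays a group. Those are the arrays with immunoglobulin signal, where 21 immunoglobulin genes summed to 3502 and 5226 intensity units against 1673 or less on the other 4. Without them the Cbx8 difference was -0.69, as large as with them. The second Cbx8 probe set (1419199_at) scattered within groups, at 7.55, 6.32 and 6.31 in GFP-negative and 6.08, 4.82 and 6.51 in GFP-positive arrays. These groups overlapped, and the difference was -0.92 (95% interval -2.19 to 0.34; limma adjusted p = 0.278). Averaged over both probe sets, Cbx8 differed by -0.79 with a limma adjusted p of 0.0874, which did not pass the threshold.

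Cbx7, the chromobox protein of stem cell self-renewal, had GFP-positive arrays above GFP-negative ones at all 3 probe sets. The called one (1420039_s_at) read 5.24, 5.12 and 5.09 in GFP-negative and 5.79, 5.44 and 5.64 in GFP-positive arrays. Cbx7 rose by 0.47 ± 0.12 (SE) there, 1.39-fold (limma adjusted p = 0.0490). This value is close to the threshold, and the call was lost in 8 settings, 5 of them with 1 array left out (adjusted p from 0.0624 to 0.225 over the 8). Without both arrays with immunoglobulin signal the difference at this Cbx7 probe set was 0.36. The brightest probe set (1433557_at) read 6.28, 6.26 and 6.06 in GFP-negative and 6.46, 6.63 and 6.83 in GFP-positive arrays. Its difference was 0.44 ± 0.13 (SE; limma adjusted p = 0.0744), and 4 settings called it higher, among them quantile normalization repeated (adjusted p = 0.0486). The third probe set differed by 0.32 (limma adjusted p = 0.141). Averaged over the 3 probe sets, Cbx7 was called higher by 0.41 (95% interval 0.17 to 0.64; limma adjusted p over all genes = 0.0265). All 3 are of middle to low brightness, since 43.0% to 54.8% of all probe sets were dimmer.

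Ring1 and Rnf2, the alternative ubiquitin ligases of PRC1, had no call. Ring1 has 1 probe set, which read 8.59, 8.49 and 8.20 in GFP-negative and 8.70, 8.71 and 8.71 in GFP-positive arrays. The GFP-positive arrays lay close together and above all GFP-negative ones, and the difference was 0.28 (95% interval -0.02 to 0.57; limma adjusted p = 0.184). Rnf2 has 5 probe sets that did not point one way. The brightest (1424873_at) read 11.29, 11.63 and 11.47 in GFP-negative and 11.05, 11.06 and 11.25 in GFP-positive arrays. The groups were separate, with a difference of -0.35 ± 0.12 (SE; limma adjusted p = 0.112, and 0.0431, called lower, when the adjustment covered only the 11260 brightest probe sets). The next brightest (1451519_at) gave -0.42 (adjusted p = 0.176), with GFP-positive array 1 lowest at 10.01. The 3 dim probe sets, which read 4.65 to 5.53, gave -0.06 to 0.48. The largest of these belonged to 1448043_x_at, of a probe set class that can also bind related transcripts, with a limma adjusted p of 0.0527. It was called higher with array medians subtracted (0.0240) and with array weights (0.0360). The mean of all 5 differed by -0.02 (95% interval -0.21 to 0.17).

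Bmi1, the partner that stimulates the ligase and sustains stem cells, had 2 bright probe sets whose groups overlapped. At 1417493_at the values were 11.16, 11.43 and 11.26 in GFP-negative and 11.16, 11.41 and 11.61 in GFP-positive arrays, a difference of 0.11 (95% interval -0.24 to 0.46; limma adjusted p = 0.641). At 1448733_at the values were 10.55, 10.37 and 10.33 against 9.89, 10.40 and 10.49, a difference of -0.16 (limma adjusted p = 0.575). The low value of GFP-positive array 1 set that sign, which turned to 0.03 without it.

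**Figure D2:**
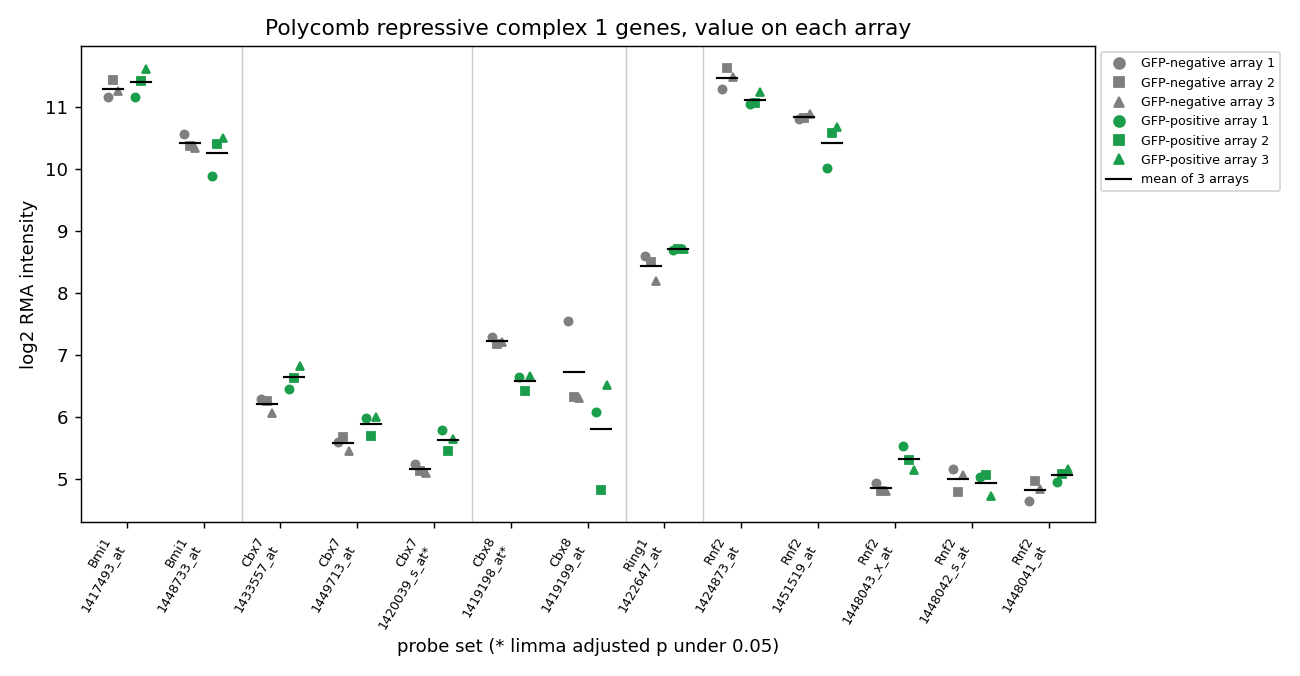
Log2 intensity of the 13 probe sets of the PRC1 genes (y axis) by gene and probe set (x axis), with 1 symbol per array, GFP-negative in grey and GFP-positive in green, and a bar at the mean of 3 arrays. Green symbols lie above grey ones at all 3 Cbx7 probe sets and below them at the first Cbx8 probe set.

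The changes of paralogs that can replace each other in a complex were compared within arrays, as the log2 difference between the brightest probe sets of both genes. Only its shift between groups can be read, since different probe sets do not share a scale. Cbx7 minus Cbx8 was -1.01, -0.92 and -1.15 in GFP-negative and -0.19, 0.21 and 0.16 in GFP-positive arrays. The groups were separate, and the balance moved toward Cbx7 by 1.09 ± 0.14 (SE). Ring1 minus Rnf2 was -2.70, -3.14 and -3.28 in GFP-negative and -2.35, -2.35 and -2.54 in GFP-positive arrays, a shift toward Ring1 of 0.63 ± 0.19 (SE), or 0.30 with all probe sets of each gene averaged. Ezh1 minus Ezh2 was -0.94, -2.87 and -2.77 in GFP-negative and -2.98, -3.59 and -3.20 in GFP-positive arrays, a shift of -1.06 ± 0.65 (SE), toward Ezh2. Without GFP-negative array 1 that shift was -0.44, and with all probe sets of each gene averaged it was -0.34 (exact permutation p = 0.4). The exact 2-sided permutation p was 0.1 for each of the 3 pairs, also after Benjamini-Hochberg adjustment, and 0.1 is the smallest that 3 against 3 arrays can give. None of the shifts can therefore pass the threshold by this test.

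**Figure D3:**
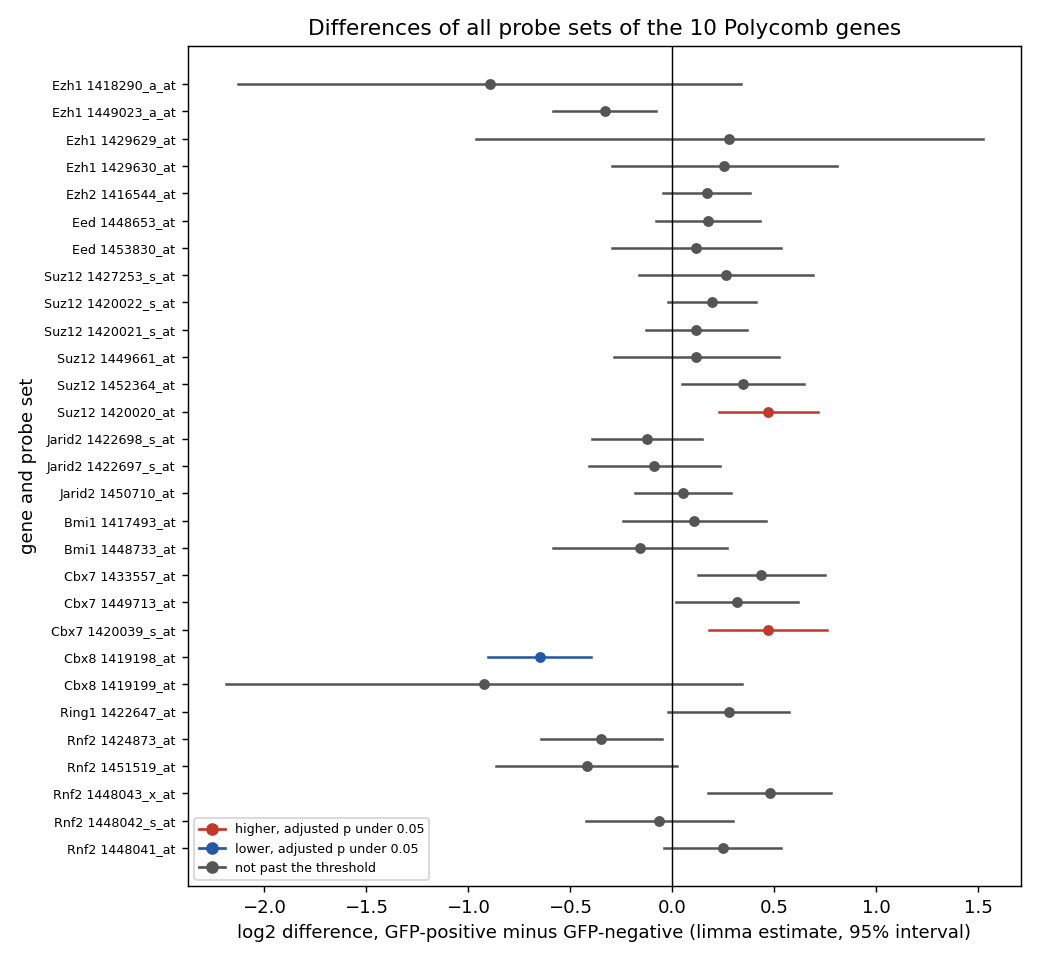
Log2 difference between GFP-positive and GFP-negative arrays (x axis) for each of the 29 probe sets (y axis), as the limma estimate with its 95% interval. The red points are the called probe sets of Suz12 and Cbx7, at 0.47 each, the blue point is Cbx8 at -0.65, and grey points did not pass the threshold.

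Outside the 10 genes, 76 measured genes of the wider Polycomb system, from 81 in 6 lists, held 1 that rose and 11 that fell in GFP-positive cells, each gene taken at its brightest probe set. These are 1.32% and 14.5% of the 76, against 8.15% and 9.92% of all 18193 genes. Of the 11 that fell, 4 come from the list of 17 Polycomb target genes, not from the lists of partners and antagonists. The median difference over the 76 was -0.02, against 0.11 over all genes. The count that fell was 15 with array weights and 5 without GFP-negative array 3. It was 4 without both arrays with immunoglobulin signal, where Phf19, Auts2, Scml4, Cbx2, Kmt2a, Hoxa10 and Hoxb4 lost their calls (limma adjusted p from 0.0770 to 0.162). That setting has 2 arrays a group, and the differences were larger in size than with all arrays for Phf19 (-0.78), Auts2 (-1.75), Scml4 (-1.23), Cbx2 (-0.63) and Hoxb4 (-0.84) and smaller for Kmt2a (-0.49) and Hoxa10 (-1.02). In bulk RNA, fewer cells of a type and less RNA per cell cannot be told apart.

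Of the 9 PRC2 partners, 2 fell and 0 rose. Epop, an accessory subunit of PRC2, read 7.97, 7.93 and 8.04 in GFP-negative and 6.14, 6.80 and 7.02 in GFP-positive arrays, 2.51-fold lower (limma adjusted p = 0.0132, and 0.0523 without GFP-negative array 3). Phf19, a Polycomb-like protein that recruits PRC2, read 7.90, 7.35 and 7.47 against 6.81, 6.70 and 6.99, 1.67-fold lower (limma adjusted p = 0.0351). The Phf19 call was lost in 8 settings, 4 of them with 1 array left out, and its other probe set was not called. The median of this list was -0.15.

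Of 21 PRC1 partners, 1 rose and 3 fell. Scml2, a sex-comb protein of PRC1, read 7.98, 7.90 and 7.86 in GFP-negative and 9.00, 9.26 and 9.18 in GFP-positive arrays. It rose 2.35-fold, the only gene of these lists called higher, and kept its call in every setting that tested it (limma adjusted p = 0.00150). The other of its 2 probe sets was not called. Auts2, a partner of PRC1 forms that can activate genes, read 8.91, 8.05 and 8.07 in GFP-negative and 6.68, 7.06 and 6.40 in GFP-positive arrays. It was 3.09-fold lower (limma adjusted p = 0.0141), and 4 of its 5 probe sets were called lower. Leaving out the pair of arrays with immunoglobulin signal ended the Auts2 call (0.0905). Scml4, a relative of Scml2, was 2.16-fold lower (limma adjusted p = 0.0233), a call lost without GFP-negative array 3 (0.0774), GFP-positive array 2 (0.0756) or GFP-positive array 3 (0.0704). Of the 2 Scml4 probe sets, 1 was called. Cbx2, a further chromobox gene, was 1.46-fold lower (limma adjusted p = 0.0209). Its call was lost in 8 settings, and its other probe set was not called. Pcgf5, a partner of variant PRC1 named after its values were seen, differed by -0.51 at its brightest probe set (limma adjusted p = 0.0521), and 2 of its 3 probe sets were called lower. Scmh1, also named after its values were seen, was called lower at 1 of its 3 probe sets, a dimmer one. The median of the list was -0.02.

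Genes that remove or oppose the Polycomb marks, listed with partners of theirs, held 1 call. Of 10 genes of the H2A deubiquitinases, Asxl proteins and other partners, 0 passed in either direction, with a median of 0.08. The brightest of them, the partners Foxk2 and Hcfc1, differed by 0.20 and 0.13 (limma adjusted p = 0.205 and 0.399). None of these 10 genes was called at its brightest probe set. A dimmer probe set was called higher for Foxk2 (1 of 5), Asxl2 (1 of 5) and Mysm1 (1 of 3), the last 2 named after their values were seen. Of 14 demethylase and Trithorax genes, 0 rose and 1 fell, with a median of -0.02. The gene that fell, identified after its values were seen, was Kmt2a, the Trithorax methyltransferase that maintains Hox gene expression. It read 11.69, 11.49 and 11.72 in GFP-negative and 11.10, 11.09 and 11.12 in GFP-positive arrays, 1.44-fold lower at the brighter of 2 called probe sets (limma adjusted p = 0.0180). Its call was lost without GFP-negative array 3 (0.0711), GFP-positive array 2 (0.0628) or GFP-positive array 3 (0.0558). The brightest genes of the list, the demethylase Kdm6b and the chromatin reader Psip1, differed by -0.05 and -0.01, signs that turned with array medians subtracted.

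Of 5 genes of MBT-domain proteins and DNA-binding recruiters, 0 rose and 1 fell. L3mbtl3, a reader of methylated histones named after its values were seen, read 11.08, 10.98 and 10.97 in GFP-negative and 9.78, 9.78 and 9.87 in GFP-positive arrays. It was 2.29-fold lower, at all 3 of its probe sets (limma adjusted p = 0.00120), and kept its call in every setting run. The recruiter Yy1 differed by -0.07 (limma adjusted p = 0.654), a sign that turned with array medians subtracted, and Mbtd1, an MBT-domain protein, by -0.34 (limma adjusted p = 0.129). A dimmer probe set was called higher for Yy1 (1 of 4) and, named after its values were seen, Sfmbt1 (1 of 5).

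**Figure D4:**
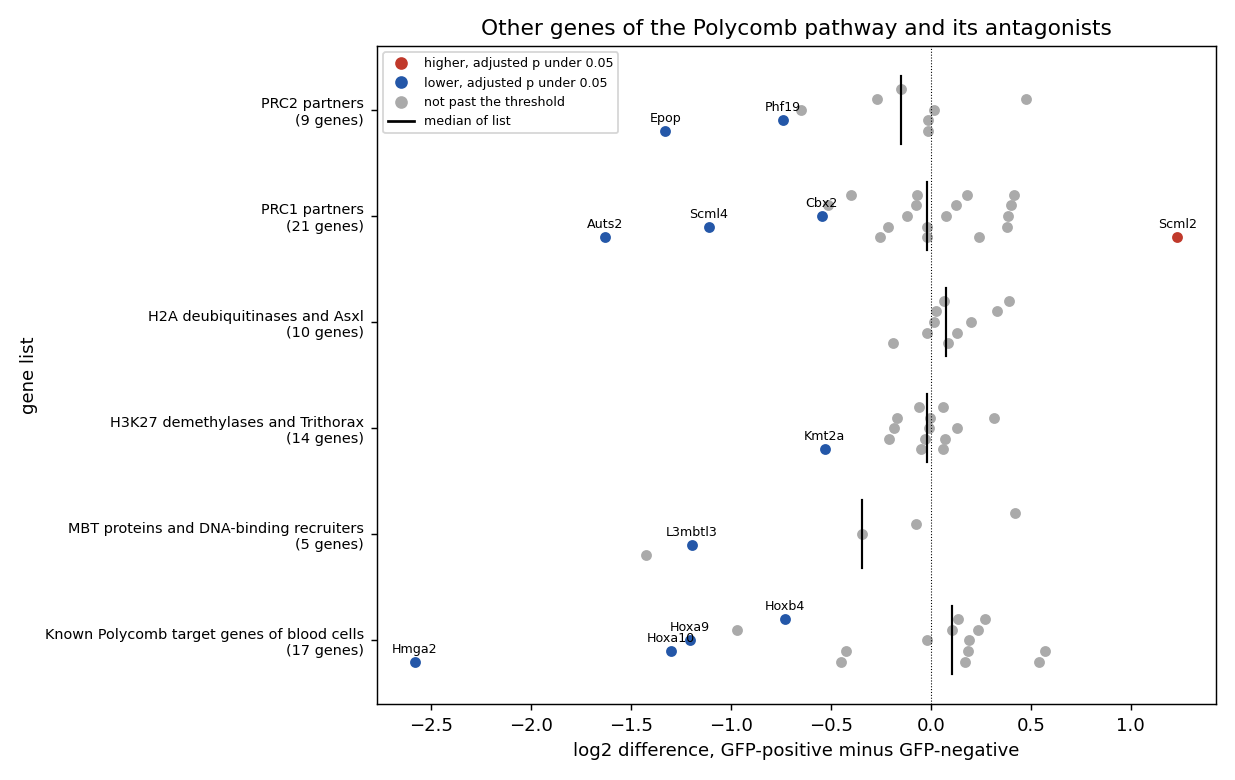
Log2 difference between GFP-positive and GFP-negative arrays (x axis) for 76 further genes in 6 lists (y axis), each at its probe set of highest mean, with the list median as a bar. Scml2 at 1.23 is the only red point, and the 11 blue points run from Hmga2 at -2.58 to Kmt2a at -0.53.

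Of 17 genes listed as Polycomb targets of blood cells, 4 fell and 0 rose, next to 9.92% and 8.15% of all genes. Whether Polycomb holds them down in these cells was not tested. Hmga2, a chromatin protein of fetal and self-renewing cells, read 11.42, 11.57 and 11.58 in GFP-negative and 8.91, 8.95 and 8.96 in GFP-positive arrays. The groups lay far apart, and Hmga2 was 5.98-fold lower (limma adjusted p = 0.000936), at 3 of 4 probe sets. Hoxa9, a homeobox gene of immature cells, read 10.71, 10.74 and 10.86 against 9.36, 9.71 and 9.62, 2.31-fold lower at both probe sets (limma adjusted p = 0.00232). Hmga2 and Hoxa9 kept their calls in every setting run. Hoxa10 was 2.46-fold lower (limma adjusted p = 0.0187) and Hoxb4 1.66-fold (limma adjusted p = 0.0167), each at 1 of 2 probe sets. The call of Hoxa10 was lost without any 1 of GFP-negative arrays 2 and 3 and GFP-positive arrays 1 and 3 (adjusted p from 0.0562 to 0.0680), and that of Hoxb4 without GFP-negative array 2 (0.0613) or 3 (0.0524). The other 13 did not pass, and the list median was 0.10. Cdkn2a, the cell cycle inhibitor locus that Bmi1 is best known for silencing, was among them and is named after its values were seen. It read 3.82 to 4.04 in GFP-negative and 4.09 to 4.29 in GFP-positive arrays, where only 23.5% of all probe sets were dimmer (limma adjusted p = 0.189). Lin28b, Gata6, Cdkn2b, Sox7 and Cdkn1c, also named after their values were seen, were dim as well. For these, 0.402% to 29.7% of all probe sets were dimmer, and the list median includes them.

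**Figure D5:**
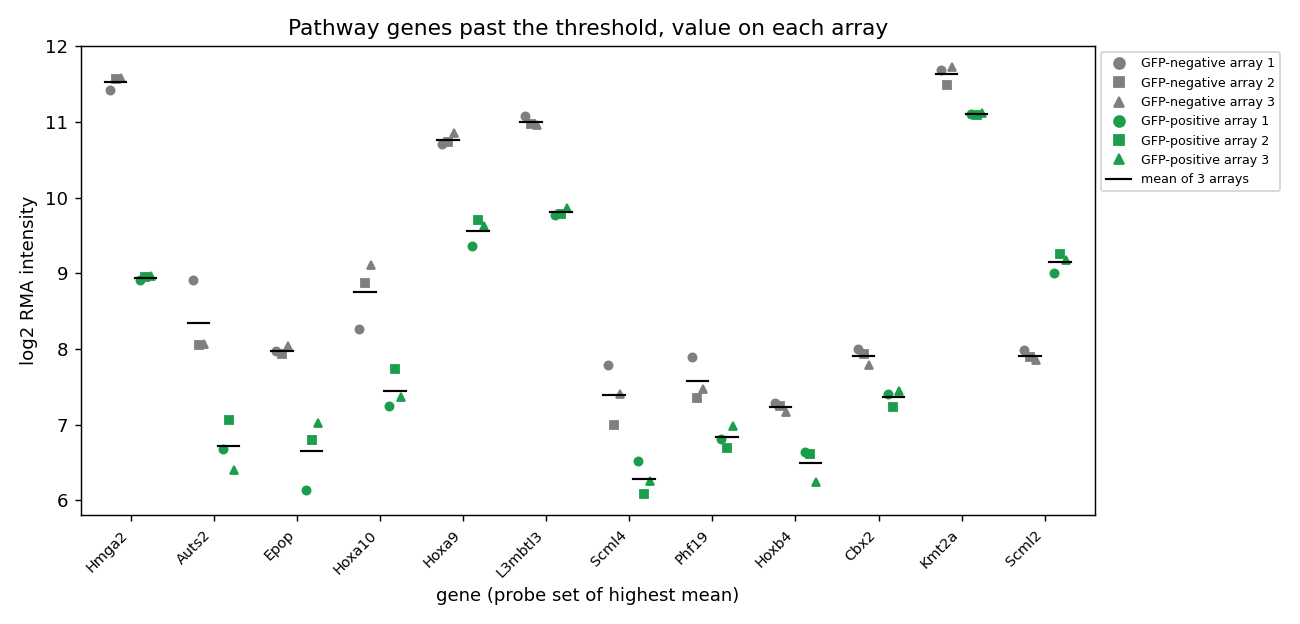
Log2 intensity on each array (y axis) of the 12 genes of the 6 lists that passed the threshold (x axis), with grey symbols for GFP-negative and green for GFP-positive arrays and a bar at the mean of 3 arrays. The groups are separate for each gene, and Scml2 is the one with GFP-positive arrays above.

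Markers of other cell states moved with these groups, and their part in the Polycomb results was not tested. Of 10 measured stem and multipotent markers 10 fell, Hoxa9 among them, and their summed intensity was 16751 to 19398 in GFP-negative and 5452 to 6701 in GFP-positive arrays. All 13 granulocyte and monocyte markers fell, with sums of 83711 to 88253 and 34777 to 44043. Of 12 erythroid markers 7 rose and 0 fell, with sums of 37074 to 37982 and 52808 to 59998. Of 17 genes of DNA replication and division, 6 rose and 0 fell, with sums of 81701 to 83171 and 90386 to 97793. The division kinase Plk1 rose 2.62-fold and Aurka 2.19-fold (limma adjusted p = 0.00194 and 0.0107, the latter 0.0725 when the pair of arrays with immunoglobulin signal was left out). Of 10 B and plasma cell markers 2 fell, with a median difference of -0.09 and sums of 4437 to 5376 and 1847 to 3038. The sums follow the brightest of them, Sdc1, Cd79b and Ighm, and Cd79b and Ighm are the ones that fell. GFP-positive arrays lay above all GFP-negative ones at 4 of these markers and below at 2. Of 9 T and natural killer markers 2 rose and 1 fell, with a median of 0.51. Their sums of 7264 to 7752 and 2707 to 4160 follow Nkg7, by far the brightest of them and the one that fell, from a mean log2 intensity of 12.83 to 11.67. The 2 that rose, Cd8b1 and Zap70, were of low and middle brightness, with 16.5% and 45.5% of all probe sets dimmer. Each of these calls was lost in 8 settings (limma adjusted p up to 0.105 for Cd8b1 and 0.122 for Zap70). Of 12 stroma and endothelium markers 3 fell, with a median of 0.07. Their sums of 1613 to 1854 and 825 to 1049 follow the brightest 3, Pecam1, Tek and Pdgfrb, which are the ones that fell. The lowest value of any probe set was 4.273 intensity units, so a marker value above 0 does not show that the marker is expressed. Hes1, the sorted gene, read 5.74, 6.01 and 5.90 in GFP-negative and 7.20, 7.12 and 7.13 in GFP-positive arrays, 2.40-fold higher, as the labels say (limma adjusted p = 0.00141).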

How the data were processed

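Per the labels, 5 ng of total RNA from each sorted sample was amplified, labelled with biotin and hybridised to an Affymetrix array. The authors deposited intensity values for probe sets, computed with RMA per the submitters' processing notes, on a linear scale. How they were returned to that scale and which RMA settings applied is not stated in what was used here. The values were taken to log2 without further normalization. Of 45101 rows, 64 are array controls and stayed out, which left 45037.

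Both groups were compared by limma (version 3.58.1, R 4.3.3), with lmFit and eBayes, no covariate and 6.383 total degrees of freedom. P-values are 2-sided and Benjamini-Hochberg adjusted across the 45037 probe sets, at a threshold of 0.05. The procedure was run on simulated data with independent noise, which does not test its error rates on these arrays. Probe sets were named by GEO's annotation of the platform, and all 10 Polycomb genes matched RefSeq (GRCm38.p6), the source of the promoter sequences, by gene ID. Other genes were taken at their probe set of highest mean. From each list up to 4 called genes of largest change were named, or the 2 of highest mean where fewer than 2 passed. The genes and lists were chosen with earlier results of these data known. Of the 81 genes in the wider lists, 5 were not analysed here.

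Counts and single probe sets were recomputed, where the setting holds them, with the replicate number blocked, trend and robust priors, quantile normalization, array medians subtracted, only the 22519 or 11260 brightest probe sets, array weights, gene means over probe sets, each array left out, and GFP-negative array 3 left out with GFP-positive array 1. Paralog differences were recomputed with quantile normalization, gene means, each array left out and pairs by replicate number.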

Additional observations from a re-analysis of the deposited data

How the results depend on the processing

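The count of Polycomb probe sets called higher, 2, became 0 with the replicate block, 0 with trend and robust priors, 4 with array medians subtracted, 1 among the 11260 brightest probe sets, 4 with array weights, 0 to 1 with 1 array left out, and 0 when the pair of arrays with immunoglobulin signal was left out. The count called lower, 1, became 0 in that last setting and was 1 with any 1 array left out. Among the 11260 brightest probe sets, which hold none of the 3 called ones, the 1 called higher was Suz12 1452364_at and the 1 called lower Rnf2 1424873_at. Over all probe sets, 2860 higher and 3452 lower became 5218 higher with array medians subtracted, 1893 lower among the 11260 brightest, 1212 to 2243 higher and 2192 to 3098 lower with 1 array left out, and 681 higher and 1652 lower without the pair of arrays. The count of genes of the wider lists called higher, 1, became 3 with trend and robust priors, 2 after quantile normalization, 3 with array medians subtracted, 3 among the 22519 brightest probe sets, 4 among the 11260 brightest, 2 with array weights, 3 with gene means, and 1 to 2 with 1 array left out. The count called lower, 11, became 14 with trend and robust priors, 12 with array medians subtracted and 14 among the 22519 brightest. It became 15 with array weights and 14 with gene means. It fell to 7 among the 11260 brightest, 4 without the pair of arrays, and 5 to 10 with 1 array left out. The labels do not say that replicate numbers pair the arrays, and deviations of same-numbered arrays correlated at 0.0231, 0.0547 and 0.0191, so the arrays were treated as unpaired. With the replicate block, all probe sets gave 1969 higher and 2872 lower calls. With array weights they gave 4083 higher and 4121 lower calls.

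Some differences changed sign, none of them called. Most were near 0, and the largest was 0.28, at Ezh1 1429629_at. With array medians subtracted, Rnf2 1448042_s_at was 0.0142, Kdm6b 0.0261, Psip1 0.0720 and Yy1 0.00227. Psip1 was 0.0393 with array weights and 0.21 with gene means, where Yy1 was 0.10 and Bmi1 -0.0248. Without the pair of arrays, Ezh1 1429630_at was -0.0166, Eed 1453830_at -0.10, Jarid2 1422697_s_at 0.0615 and Psip1 0.0793. With 1 array left out, the difference ran from -0.22 to 0.73 for Ezh1 1429629_at, -0.0324 to 0.27 for Eed 1453830_at, -0.16 to 0.0443 for Jarid2 1422697_s_at, -0.00328 to 0.0923 for Jarid2 1450710_at, -0.27 to 0.0266 for Bmi1 1448733_at, -0.17 to 0.0455 for Rnf2 1448042_s_at and -0.0552 to 0.0870 for Psip1. The cause was not tested.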
